A study of Mus musculus with 16 samples.

Results

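The genes described here encode 9 apolipoproteins (Apoa1, Apoa2, Apoa4, Apoa5, Apob, Apoc2, Apoc3, Apoe and Apom) and Mttp, the lipid transfer protein with which the liver builds very low density lipoprotein (VLDL). They were chosen by name. Each of the 10 was found once among the 24082 gene IDs of the deposited liver table, and all 10 were among the 12535 genes that passed the filter on low values, which asked for a deposited value of 10 or more in 4 or more libraries.

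Liver RNA from 16 female C57Bl6/J mice, aged 9 to 11 weeks, was sequenced with 1 library per mouse and 4 mice in each of 4 groups. EtOH Vehicle mice were given the Lieber-DeCarli liquid diet with ethanol raised stepwise to 6% vol/vol over 25 days, and EtOH IMC mice were given the same diet with iodomethylcholine (IMC) at 0.06% wt/wt. Pair Vehicle mice were pair-fed a control liquid diet in which maltose dextrin replaced ethanol calorie for calorie, and Pair IMC mice had this diet with IMC. IMC is a small molecule that blocks the bacterial choline TMA lyase in the gut, so its target is an enzyme of the microbes and not of the mouse. The labels name no engineered allele in any group. The study describes lower food intake and body weight in mice given both IMC and ethanol, and intake cannot be told apart from the drug in that group. A figure legend of the study also marks a body weight difference between pair-fed mice with and without IMC. Body weight therefore cannot be told apart from the drug in pair-fed mice either.

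The liver secretes triglyceride in VLDL, a particle built around a single chain of apolipoprotein B. Mttp loads lipid onto this chain while it enters the endoplasmic reticulum (ER), and the particle then leaves the ER in transport vesicles coated by COPII proteins. Exchangeable apolipoproteins sit on the surface of the finished particles: Apoc2 activates lipoprotein lipase, Apoa5 favours and Apoc3 restrains clearance of triglyceride, and Apoe is the ligand by which remnants are taken up. Apoa1 and Apoa2 are the main proteins of high density lipoprotein (HDL), where Apom carries sphingosine-1-phosphate. Gene-level read counts show neither the edited form of Apob mRNA nor protein or secretion.

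Apoa1, Apoc3, Apoa4 and Apoa5 lie side by side on mouse chromosome 9. In limma, with all 16 libraries on a common scale, the members called for ethanol were Apoa1 and Apoa5 of this cluster. With the columns scaled as deposited they were Apob and Mttp, which lie outside it, and DESeq2 also called Apob. On GRCm38 (GENCODE vM21) Apoa1 spans chr9:46228580-46230466, Apoc3 chr9:46232933-46235636, Apoa4 chr9:46240696-46243459 and Apoa5 chr9:46268633-46271919, 43340 bp in all. Apoc3 is on the minus strand and the other 3 are on the plus strand. Promoter windows run from 250 bases before to 50 bases after the start annotated in RefSeq. For Apoa1, Apoa4 and Apoa5 this is not the GENCODE start given above. Distances of motifs are counted from the RefSeq start. The windows of Apoa1 and Apoa5 are shown for their called ethanol effects in limma, and that of Apoa4 as a neighbour not called in limma. Ethanol effects were not compared between these genes. The window of Apoc2 is shown because it had the smallest adjusted p in the IMC contrasts. The sequences are from RefSeq on GRCm38.p6 and are written on the strand of the gene, 5′ to 3′. The windows are chr9:46228380-46228679 for Apoa1, chr9:46240594-46240893 for Apoa4, chr9:46268358-46268657 for the first of 2 entries of Apoa5, and chr7:19677892-19678191, on the minus strand, for Apoc2. Capitals mark matches to the motifs named after the sequences.
Apoa1: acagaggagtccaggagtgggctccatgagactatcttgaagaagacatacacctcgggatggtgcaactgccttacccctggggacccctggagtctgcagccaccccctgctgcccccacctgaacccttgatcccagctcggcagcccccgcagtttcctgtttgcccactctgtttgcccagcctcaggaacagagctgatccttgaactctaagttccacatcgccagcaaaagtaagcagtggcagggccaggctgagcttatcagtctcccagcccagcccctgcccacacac
Apoa4: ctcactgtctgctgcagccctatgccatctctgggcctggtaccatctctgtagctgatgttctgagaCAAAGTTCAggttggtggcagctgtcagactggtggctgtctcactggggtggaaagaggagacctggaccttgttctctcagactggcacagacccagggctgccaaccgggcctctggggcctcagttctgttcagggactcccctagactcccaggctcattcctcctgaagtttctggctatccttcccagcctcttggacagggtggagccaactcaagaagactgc
Apoa5: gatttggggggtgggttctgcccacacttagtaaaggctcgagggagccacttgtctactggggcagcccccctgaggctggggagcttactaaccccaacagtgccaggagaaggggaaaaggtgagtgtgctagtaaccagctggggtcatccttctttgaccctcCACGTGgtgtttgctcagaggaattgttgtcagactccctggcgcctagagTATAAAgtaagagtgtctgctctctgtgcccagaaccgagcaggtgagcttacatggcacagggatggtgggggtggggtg
Apoc2: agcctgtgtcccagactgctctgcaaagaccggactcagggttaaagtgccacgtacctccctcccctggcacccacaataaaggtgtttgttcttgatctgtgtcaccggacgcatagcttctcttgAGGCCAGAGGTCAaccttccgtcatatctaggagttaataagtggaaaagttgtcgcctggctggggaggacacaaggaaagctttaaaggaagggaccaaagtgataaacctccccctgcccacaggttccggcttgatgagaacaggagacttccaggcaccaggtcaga

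Both strands of the 300 bases were searched for 5 motifs, and 9 of the 10 members had a window among the 32851 promoters in the RefSeq table. In Apoa4 the capitals are CAAAGTTCA, the reverse complement of the letters TGNACTTTG that the nuclear receptor HNF4 binds, between 182 and 174 bases before the start, and 1.41% of all promoters hold this motif. In Apoa5 they are the palindrome CACGTG, an E-box of the kind bound by USF proteins, between 82 and 77 bases before the start, and TATAAA, between 31 and 26 bases before it. CACGTG is found in 7.15% and TATAAA in 13.6% of all promoters. In Apoc2 the match is to the direct repeat 1 of nuclear receptors, which 0.0944% of promoters hold. The window of Apoa1 held none of the 5, the last of which was CCAAT, found in 37.4% of all promoters and in Apoa2 among the members. A match describes the letters only.

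Of the other members, Apoa2 is at chr1:171225054-171226379 and Apob at chr12:7977648-8016835 on the plus strand. Apoc2 (chr7:19671579-19677941), Apoe (chr7:19696109-19699188), Apom (chr17:35128997-35132050) and Mttp (chr3:138089854-138144968) are on the minus strand. All 10 are protein coding, and for 9 of them no exonic base is shared with another gene on the same strand. For Apoc2 only 167 of 813 exonic bases, or 20.5%, are its own, and the rest are shared with a read-through gene listed as Apoc4-apoc2, for which the table held 0 reads in all 16 libraries. Reads on the shared bases may have been left uncounted, so the level of Apoc2 is uncertain.

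Libraries held 9632659 to 12601199 reads on genes, of which the 10 members took 2.87 to 3.42%. The hepatocyte marker Alb took 6.74 to 13% of reads, and each of the 16 hepatocyte markers of a list was present. Values are given as normalized read counts, on a scale where the 16 libraries share a median ratio. As deposited, the median gene was 0.19 higher on the log2 scale in ethanol-fed than in pair-fed libraries, and the common scale removes this shift. The median-ratio factor of the deposited columns was 0.940 to 0.945 in all pair-fed and 1.07 to 1.08 in all ethanol-fed libraries, so libraries of a diet were on a common scale and the diets were not. The sources used here do not say that the diets were scaled separately, and an ethanol value given as deposited holds this shift. Libraries are named by the number in their title. Numbers 1 to 8 are Pair IMC and EtOH Vehicle and numbers 9 to 16 are Pair Vehicle and EtOH IMC. Early and late numbers therefore cannot be told apart from an IMC effect within 1 diet, from an ethanol effect within 1 treatment, or from a difference in IMC effect between the diets. The averaged IMC and ethanol effects are balanced over early and late numbers. Ethanol-fed libraries all have odd and pair-fed libraries even numbers, so odd and even cannot be told apart from any ethanol effect, averaged or not. Neither labels nor methods say that early and late numbers, or odd and even numbers, were handled apart.

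Levels can be compared between genes only per length. Per kilobase of exon the order was Apoa2 (86397 ± 13184 normalized counts per kilobase, SD, n = 16 libraries), Apoe (54023 ± 6871), Apoa1 (35090 ± 8594), Apoc3 (13096 ± 2384), Apob (7467 ± 1161), Apoa5 (5532 ± 1219), Apoa4 (4215 ± 3516), Apom (2660 ± 338), Mttp (892 ± 94.3) and Apoc2 (54.5 ± 14.9). Apoa1 exceeded Apoc3, Apoc3 exceeded Apob, Apom exceeded Mttp and Mttp exceeded Apoc2 in 16 of 16 libraries. The Apoc2 level was divided by all 813 exonic bases, of which only 167 are its own. Reads on the rest may have been left uncounted, so its level and last place are uncertain. The remaining neighbours changed places in some libraries: Apoa2 was above Apoe in 15, Apoe above Apoa1 in 14, Apob above Apoa5 in 12, Apoa5 above Apoa4 in 14 and Apoa4 above Apom in 11 of 16. The members' summed level had group means between 341521 ± 5361 and 362864 ± 14113 normalized counts (SD, n = 4). In bulk liver, fewer cells of a type and less RNA per cell cannot be told apart.

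**Figure D1:**
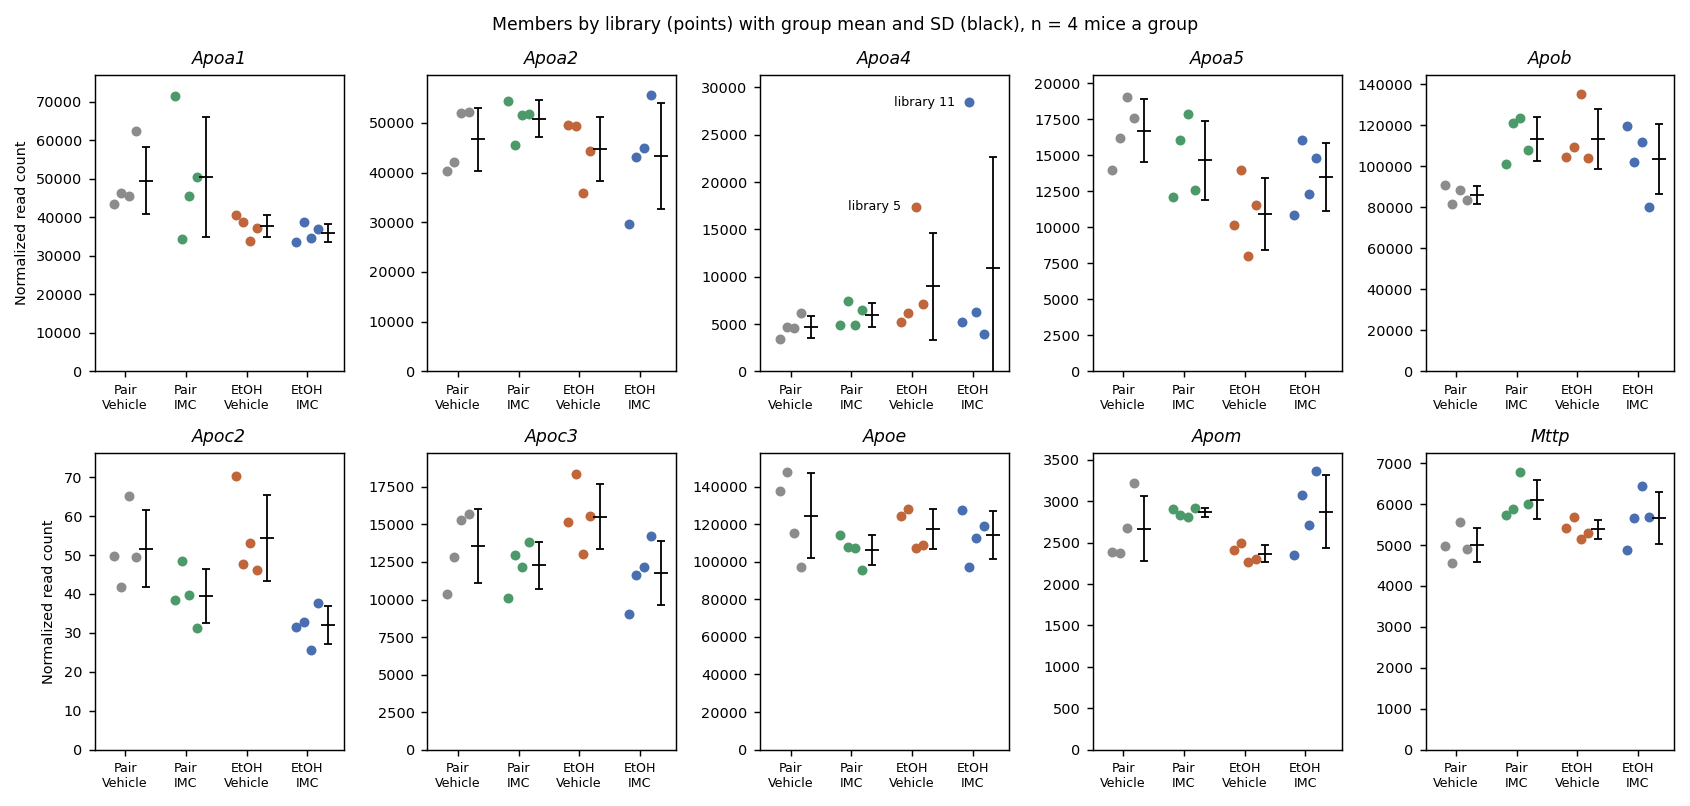
Normalized read count (linear axis from 0) of each of the 10 members in each library (points, coloured by group) with the group mean and SD (black, n = 4 mice; an SD bar that would pass below 0 is cut at the axis). Apoa4 stands apart in library 5 (17403) and library 11 (28413), and Apob in Pair Vehicle lies below every library of Pair IMC and EtOH Vehicle.

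The first question was what IMC did to these mRNAs in mice that had no ethanol. In pair-fed mice 0 of the 10 members passed the limma test at an adjusted p under 0.05, beside 9.48% of all genes tested. At an unadjusted p under 0.05, 2 of 10 members passed, Apob and Mttp, both higher with IMC, beside 25.7% of all genes. DESeq2 on the recovered whole reads called 2 members, beside 11.8% of all genes, and edgeR called 0, beside 9.21%. In Apob and Mttp, 2 of 10 members, the groups did not overlap, beside 14.3% of all genes.

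Apob was 90709, 81388, 88443 and 83652 normalized read counts in Pair Vehicle libraries 10, 12, 14 and 16. It was 100945, 121213, 123450 and 108060 in Pair IMC libraries 2, 4, 6 and 8. The lowest Pair IMC library was above the highest Pair Vehicle library. The difference was 0.39 ± 0.17 on the log2 scale (SE), a level 1.31 times as high, with an adjusted p of 0.144 in limma. DESeq2 gave an adjusted p of 0.0148 for the same difference, so the call depends on the tool.

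Mttp was 4972, 4568, 5557 and 4913 normalized read counts in the same Pair Vehicle libraries and 5738, 5878, 6796 and 6004 in the Pair IMC libraries. Again the groups did not overlap. The log2 difference was 0.29 ± 0.091 (SE), or 1.22 times, with an adjusted p of 0.0554 in limma, just outside the threshold. Over the 16 fits that each left out a library this adjusted p lay between 0.0383 and 0.172, and it was under 0.05 in 3 of them, those without library 9, 13 or 14.

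The other 8 members overlapped between the pair-fed groups. Apoc2 had a log2 difference of -0.38 (adjusted p = 0.219), Apoe of -0.21 (0.477), Apoa5 of -0.20 (0.503) and Apoc3 of -0.13 (0.631) in limma. Apoa1, the main HDL protein, differed by -0.0064, with a 95% interval of 0.766 to 1.29 times the Pair Vehicle level. The median over the 10 members was 0.055, beside -0.00096 over all genes tested. Markers of other cells moved with this contrast in part: both pancreas markers that were tested were lower with IMC (summed level of the list 127 to 156 and 77.4 to 99.0 normalized counts, with 8 of its 12 genes at 0 in all libraries), as was 1 of 8 bile duct markers, and 1 of 14 stellate and 1 of 12 sinusoidal endothelial markers were higher. Of 16 hepatocyte markers 1 was higher and 1 lower (summed level 1.60e+06 to 2.29e+06 and 2.10e+06 to 2.32e+06 normalized counts). None of the 3 intestinal markers tested was called, but the summed level of that list did not overlap, at 1270 to 1409 normalized counts in Pair Vehicle and 735 to 936 in Pair IMC, with Cdx1, Cdx2 and Rbp2 at 0 in all libraries. Their part in the members' values was not tested.

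The second question was what IMC did in ethanol-fed mice, the group in which the study tested its effect on liver injury. Here 1 of 10 members was called, Apoc2, beside 21.5% of all genes, and its level fell. Apoc2 was also the only member whose groups did not overlap, beside 25.3% of all genes. At an unadjusted p under 0.05, 3 of 10 members passed, Apoc2 and Apoc3 with lower and Apom with higher levels, beside 34.9% of all genes.

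Apoc2, the activator of lipoprotein lipase, was 70.4, 47.8, 53.1 and 46.1 normalized read counts in EtOH Vehicle libraries 1, 3, 5 and 7. It was 31.6, 32.8, 25.7 and 37.6 in EtOH IMC libraries 9, 11, 13 and 15. Every EtOH IMC library was below every EtOH Vehicle library. The level fell by 0.74 ± 0.19 on the log2 scale (SE), to 0.598 times, with an adjusted p of 0.00991 in limma. These are low counts, 25 to 45 reads in the lowest library of each group, and part of the gene's exons may not have been counted. The call held in each of the 16 fits without 1 library, with an adjusted p of at most 0.0409. With a mean of at least 100 as the filter, Apoc2 was not tested.

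In pair-fed mice Apoc2 was 49.8, 41.8, 65.3 and 49.6 without and 38.4, 48.4, 39.8 and 31.3 normalized read counts with IMC, and these groups overlapped. The gap between the IMC effects in ethanol-fed and pair-fed mice was -0.36 on the log2 scale with an adjusted p of 0.545 in limma, so the effects were not shown to differ. Averaged over both diets, Apoc2 fell by 0.56 ± 0.13 on the log2 scale, to 0.679 times (adjusted p = 0.00472). Markers of stellate cells moved with the ethanol-fed contrast: 8 of 14 were lower and 0 higher with IMC, and their summed level ran from 7493 to 8705 normalized counts in EtOH Vehicle and from 4673 to 6039 in EtOH IMC, with none at 0 in all libraries. Also lower were 1 of 16 hepatocyte markers, 1 of 3 intestinal markers tested and the 1 lymphocyte marker tested, and 0 macrophage markers were called. The part of these in the Apoc2 difference was not tested.

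Apoc3, the restraint on triglyceride clearance, was 15182, 18362, 13025 and 15543 normalized read counts in EtOH Vehicle and 9040, 11620, 12170 and 14199 in EtOH IMC. The groups overlapped through the lowest EtOH Vehicle library and the highest EtOH IMC library. The log2 difference of -0.41 ± 0.16 (SE) had an adjusted p of 0.0702 in limma, and of 0.0413 in DESeq2. Without library 15 of EtOH IMC the limma difference was -0.51 (adjusted p = 0.0403).

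Apom ran from 2265 to 2492 normalized read counts in EtOH Vehicle, the tightest member there at a coefficient of variation of 4.33%, together with Mttp at the same value. In EtOH IMC it ran from 2349 to 3359. The log2 difference was 0.27 ± 0.11 (SE), with an adjusted p of 0.0810 in limma. Without library 9, the lowest of EtOH IMC, it was 0.36 with an adjusted p of 0.0198.

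Apob and Mttp overlapped between the ethanol-fed groups. Apob was 104389, 109430, 135035 and 104222 normalized read counts in EtOH Vehicle and 119812, 101833, 112020 and 80200 in EtOH IMC. Its log2 difference was -0.14 with a 95% interval from -0.49 to 0.21. The gap between the IMC effects in ethanol-fed and pair-fed mice was -0.53 ± 0.24 on the log2 scale (SE), with an unadjusted p of 0.0361 and an adjusted p of 0.289 in limma, so it did not pass. Mttp was 5410, 5686, 5135 and 5288 in EtOH Vehicle and 4889, 5655, 6441 and 5680 in EtOH IMC, a log2 difference of 0.069 (adjusted p = 0.626).

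Over all 10 members the difference between the diets gave 0 calls in limma, edgeR and DESeq2, beside 1.11%, 0.949% and 2.71% of all genes. At an unadjusted p under 0.05 there were 2 members in limma, beside 15.3% of all genes. Apart from Apob the other was Apoa5, at 0.52 ± 0.24 on the log2 scale (SE) with an unadjusted p of 0.0488 and an adjusted p of 0.323. Averaged over both diets, IMC gave 2 calls, beside 28.2% of all genes. Apoc2 fell, as above, and Mttp rose by 0.18 ± 0.065 on the log2 scale, to 1.13 times (adjusted p = 0.0474). The Mttp call was close to the threshold: it was lost in 13 of the 16 fits without 1 library, where the adjusted p reached 0.106, and in edgeR (0.0580).

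**Figure D2:**
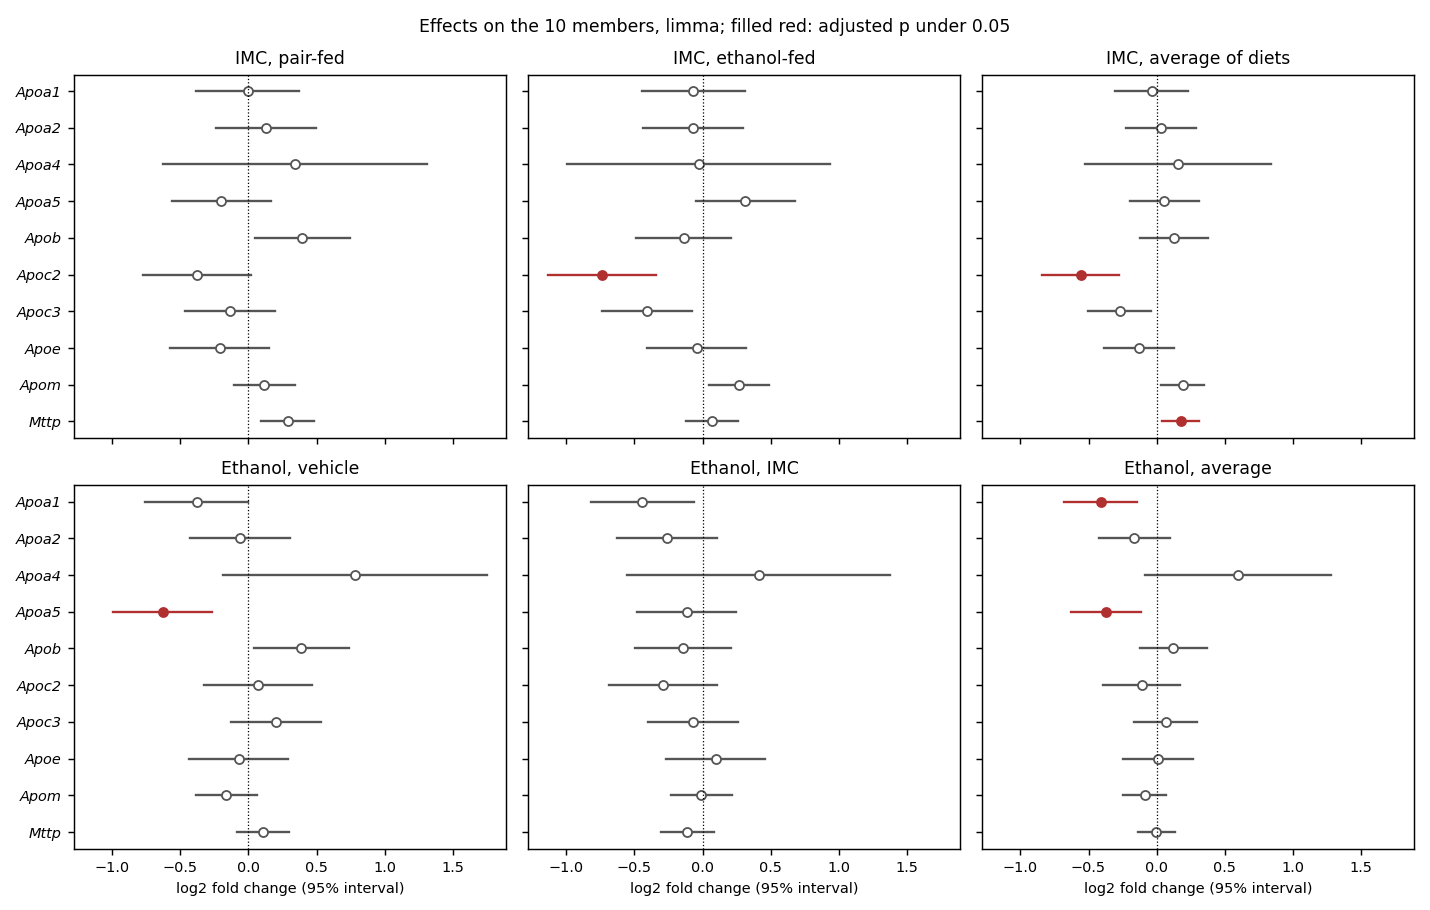
Log2 fold change (horizontal axis, with its 95% interval) of each member in limma for IMC in each diet and averaged (upper row) and for ethanol in each treatment and averaged (lower row). Filled red points have an adjusted p under 0.05: Apoc2 in ethanol-fed mice, Apoc2 and Mttp in the averaged IMC effect, Apoa5 for ethanol without IMC, and Apoa1 and Apoa5 in the averaged ethanol effect.

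The third question was what ethanol did. Without IMC, 1 of 10 members was called, Apoa5, beside 11.9% of all genes, and it fell. EtOH Vehicle and Pair Vehicle did not overlap in 2 members, Apoa1 (lower) and Apob (higher), beside 19% of all genes. At an unadjusted p under 0.05, 3 of 10 members passed, Apoa1, Apoa5 and Apob, beside 27.8% of all genes. The 2 IMC contrasts and the ethanol contrasts share groups, so these lists are not independent.

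Apoa5, which favours the clearance of triglyceride, was 13974, 16230, 19077 and 17572 normalized read counts in Pair Vehicle. In EtOH Vehicle it was 10149, 14001, 8040 and 11575. The groups overlapped by a small margin, since library 3 of EtOH Vehicle was just above library 10 of Pair Vehicle. Ethanol lowered it by 0.63 ± 0.17 on the log2 scale (SE), to 0.646 times, with an adjusted p of 0.0251 in limma. The call was lost without library 1, 5, 14 or 16 (adjusted p between 0.0502 and 0.0907). With the columns as deposited the difference was -0.44 with an adjusted p of 0.0702, so the call rests on the common scale.

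Under IMC the ethanol groups of Apoa5 were close. Pair IMC libraries held 12089, 16059, 17838 and 12614 normalized read counts and EtOH IMC libraries 10842, 16047, 12324 and 14781. The log2 difference was -0.12, with an adjusted p of 0.691 in limma. Averaged over vehicle and IMC, ethanol gave 2 calls, beside 26.1% of all genes, Apoa5 and Apoa1, both lower. Apoa5 fell by 0.37 ± 0.12 on the log2 scale (adjusted p = 0.0315), a call that was lost in 7 of the 16 fits without 1 library and with the columns as deposited (adjusted p = 0.242). Whether ethanol acted differently with and without IMC is the same test as that of IMC between the diets, given above, which did not pass.

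Apoa1, its neighbour at the far end of the cluster, was 43559, 46392, 45518 and 62379 normalized read counts in Pair Vehicle and 40710, 38741, 33967 and 37210 in EtOH Vehicle. All EtOH Vehicle libraries were below all Pair Vehicle libraries. Pair IMC libraries held 71486, 34415, 45457 and 50402, the widest spread of the gene, and EtOH IMC libraries 33488, 38698, 34656 and 36852. The single contrasts did not pass (-0.38 with an adjusted p of 0.176 without IMC, and -0.44 with 0.101 under IMC). Averaged over both treatments, Apoa1 fell by 0.41 ± 0.13 on the log2 scale, to 0.752 times (adjusted p = 0.0241), and this call held in each fit without 1 library (adjusted p at most 0.0485). With the columns as deposited the difference was -0.22 with an adjusted p of 0.173, so both averaged ethanol calls rest on the common scale.

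Apob lay higher with ethanol when IMC was absent. All 4 EtOH Vehicle libraries (104222 to 135035 normalized read counts) were above the 4 Pair Vehicle libraries (81388 to 90709). The log2 difference was 0.39 ± 0.17 (SE), a level 1.31 times as high, with an adjusted p of 0.135 in limma. It passed with the columns as deposited (0.58, adjusted p = 0.0177), in DESeq2 (0.40, adjusted p = 0.0124) and in edgeR with upper-quartile normalization (0.42, adjusted p = 0.0406). Mttp without IMC differed by 0.11 (adjusted p = 0.472), and by 0.30 (0.0248) with the columns as deposited. Under IMC the log2 difference of Apob was -0.14 (adjusted p = 0.597). Its group mean was lowest in Pair Vehicle, at 86048 ± 4279 normalized counts (SD, n = 4), and was 113417 ± 10734 in Pair IMC, 113269 ± 14710 in EtOH Vehicle and 103466 ± 17169 in EtOH IMC.

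Under IMC 0 members were called for ethanol in limma, beside 16.5% of all genes, and 0 had groups that did not overlap, beside 19.2%. Apoa1 alone had an unadjusted p under 0.05, beside 30.6% of all genes. DESeq2 called 1 member, Apoa1 (-0.49, adjusted p = 0.0253), beside 18.3% of all genes, and edgeR called 0, beside 16.3%. In that contrast the median log2 difference of the members was -0.11, beside 0.0049 over all genes tested. This depends on the scale. With the columns as deposited, Apoa5, Apob, Apoc3, Apom and Mttp, negative on the common scale, had positive differences (0.076, 0.048, 0.12, 0.18 and 0.081). None of these passed in limma on either scale.

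**Figure D3:**
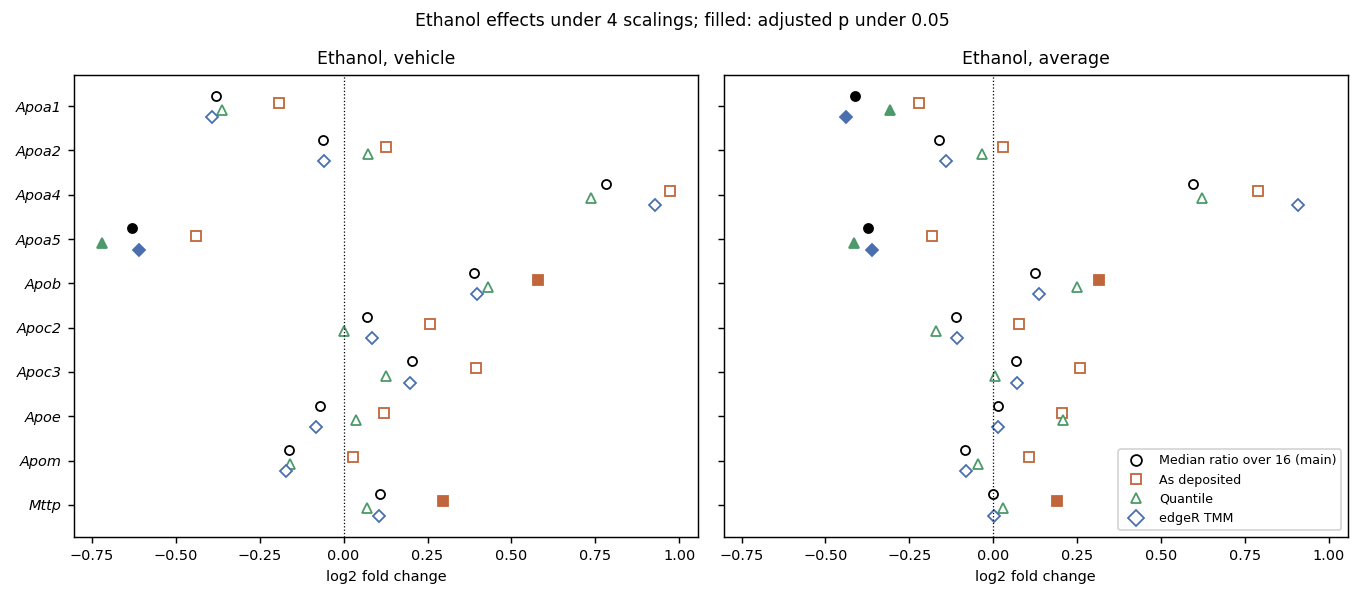
Log2 fold change for ethanol without IMC (left) and averaged over vehicle and IMC (right) for each member under 4 scalings: the median ratio over 16 libraries, the columns as deposited, quantile normalization, and edgeR with TMM. Filled symbols have an adjusted p under 0.05. The deposited values lie to the right of the median-ratio values for each member. On the deposited scale Apob and Mttp pass and Apoa1 and Apoa5 do not.

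Marker genes of other cells differed between Pair Vehicle and EtOH Vehicle as well. Of 14 stellate cell markers 4 were higher and 0 lower (summed level 5615 to 7632 and 7493 to 8705 normalized counts), and of 12 sinusoidal endothelial markers 2 were higher (5644 to 6276 and 6737 to 7735), with none of either list at 0 in all libraries. Of 14 macrophage and Kupffer cell markers 0 were called (3828 to 10628 and 6247 to 8873). Of 16 hepatocyte markers 1 was lower, as was 1 of 3 intestinal markers tested. The summed level of the hepatocyte list was 1.60e+06 to 2.29e+06 normalized counts in Pair Vehicle and 1.45e+06 to 1.65e+06 in EtOH Vehicle, which overlapped. It was 2.10e+06 to 2.32e+06 in Pair IMC and 1.36e+06 to 1.74e+06 in EtOH IMC, which did not overlap. For ethanol averaged over vehicle and IMC, 5 of 12 sinusoidal endothelial markers were higher (5644 to 7322 in the pair-fed and 5665 to 7735 in the ethanol-fed groups), and of the stellate markers 2 were higher and 1 lower (5615 to 7632 and 4673 to 8705). In that contrast 1 hepatocyte marker was higher and 1 lower, and 1 intestinal marker was lower. The part of these in the members' differences was not tested.

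Apoa4 had the widest range of any member. It is an exchangeable apolipoprotein that the intestine makes in bulk and rodent liver also makes. It was 3417, 4685, 4568 and 6209 normalized read counts in Pair Vehicle, and 4908, 7469, 4951 and 6464 in Pair IMC. In EtOH Vehicle it was 5184, 6199, 17403 and 7093, and in EtOH IMC 5206, 28413, 6257 and 3964. Library 5 of EtOH Vehicle and library 11 of EtOH IMC stood far above all others, while the remaining 14 lay between 3417 and 7469. Over all 16 the highest was 8.32 times the lowest.

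No Apoa4 contrast passed in limma. Ethanol without IMC gave 0.78 ± 0.46 on the log2 scale (SE, adjusted p = 0.279), and without libraries 5 and 11 it gave 0.40 (0.237). Ethanol under IMC gave 0.41, and -0.21 without the pair of libraries, so its sign rests on library 11. IMC in ethanol-fed mice gave -0.028, with -0.27 when both were left out, -0.65 without library 11 alone and 0.35 without library 5 alone. With both libraries left out, Apoa5 lost its call for ethanol without IMC (adjusted p = 0.0782) and Mttp its call for the averaged IMC effect (0.106).

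The same libraries were unusual for other members. Library 5 was the highest of its group for Apob and Apoa4 and the lowest for the other members but Apoc2, 7 in all. Library 11 was the highest of EtOH IMC for Apoa1, Apoa4 and Apoa5, and library 9 was the lowest there for 6 members. As Apoa4 is also an intestinal gene, markers of intestinal epithelium were read in each library. Of 13 markers in the table, Cdx1, Cdx2 and Rbp2 were at 0 in all 16 libraries, and 7, these included, never exceeded 3 reads. The summed level was 1103 to 1254 normalized counts in EtOH Vehicle and 332 to 1439 in EtOH IMC, and most of it was Fabp2, which the liver also holds at some level. In library 11 Fabp2 was 1242, against 185 to 323 in the other EtOH IMC libraries, and in library 5 it was 1018, against 903 to 988 in the other EtOH Vehicle libraries. Vil1 was 5.05 in library 11, against 1.98 to 11.3 in the other EtOH IMC libraries, and 12.6 in library 5, against 0.891 to 12.7 in the other EtOH Vehicle libraries. Sis was 4.21 and Alpi 0.842 in library 5, values that rest on few reads, and both were 0 in the other 15 libraries. Tff3 was also highest in library 5, at 9.27, beside 0 to 6.81 in the others. The part of these markers in the Apoa4 values was not tested.

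**Figure D4:**
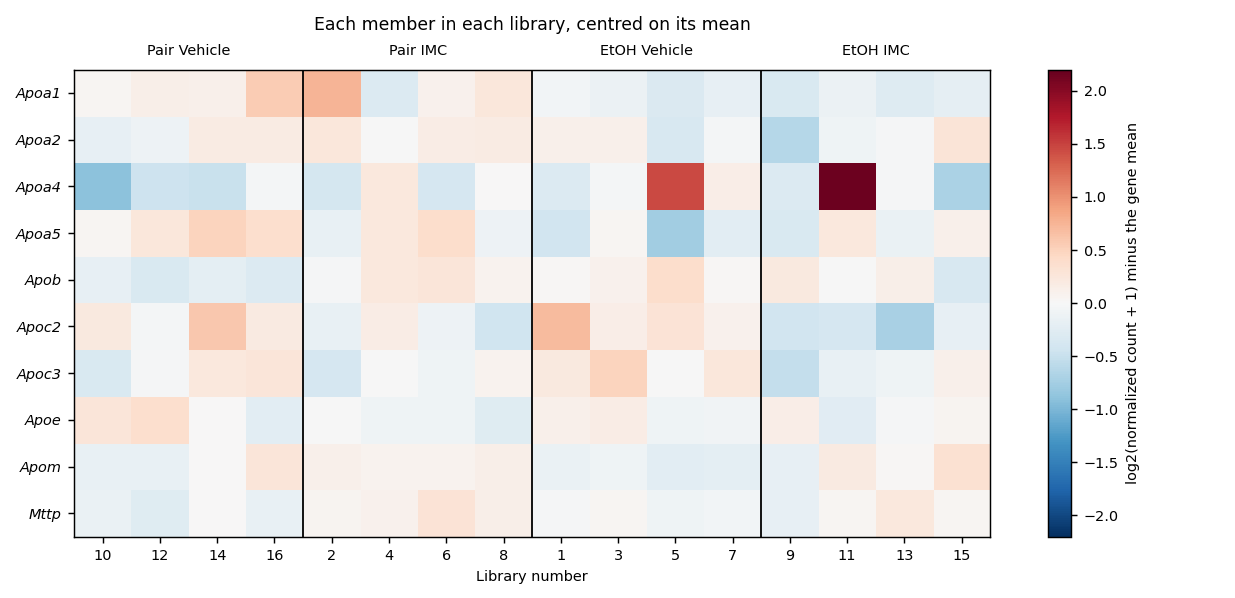
Log2(normalized count + 1) of each member minus its mean over the 16 libraries (colour, from blue below to red above; library number on the horizontal axis, groups divided by lines). Apoa4 reaches 1.45 in library 5 and 2.15 in library 11. The 4 EtOH IMC libraries are all below the mean for Apoc2 and Apoa1.

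Apoa2 and Apoe were the steadiest of the abundant members across conditions. Apoa2 group means ran from 43348 ± 10633 normalized counts in EtOH IMC to 50856 ± 3749 in Pair IMC (SD, n = 4), and its limma log2 differences from -0.26 to 0.13 in the 4 contrasts of 2 groups. Apoe ran from 106267 ± 7837 in Pair IMC to 124439 ± 22678 in Pair Vehicle, with log2 differences from -0.21 to 0.097. The adjusted p was at least 0.327 for both in those contrasts. A change in Apoe for ethanol without IMC beyond 1.23 times, or below 0.740 times, was outside the 95% interval.

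For the 3 members with the widest range of group means, the genes whose centred log2 values over the 16 libraries lay nearest were sought by root-mean-square difference, as a description. For Apoa5 these were Zc3h8 (0.174 log2 units), Usf2 (0.175) and Bnip3 (0.176), beside 0.326 for the size of Apoa5's own variation. For Apoc2 they were Rfc5 (0.194), Mgll, a monoglyceride lipase (0.215), and Adra2b (0.234), beside 0.370. For Apoa4 they were Ankrd23 (0.527), Slc25a4 (0.550) and Adgrg1 (0.591), beside 0.749. Ankrd23 and Slc25a4 were highest in library 11 as well, at 157 and 167 normalized counts, and at most 48.8 and 82.8 in the other libraries. Adgrg1 was highest in library 5 (76.7) and next in library 11 (74.1).

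Genes around the members were read from 5 lists. Beside the counts of each list, IMC gave calls in 9.48% of all genes in pair-fed and 21.5% in ethanol-fed mice. Ethanol gave calls in 11.9% of all genes without IMC and 16.5% under IMC. Whether a list differed from these shares was not tested. In the list of VLDL assembly, lipidation and ER export, 36 genes were tested. IMC raised 2 and lowered 1 in pair-fed mice, and raised 5 and lowered 3 in ethanol-fed mice, with medians of 0.033 and 0.078 on the log2 scale. Vmp1, an ER protein needed for lipoprotein release, rose with IMC in both diets: from 1096 ± 159 to 1690 ± 232 normalized counts in pair-fed mice (SD, n = 4; log2 0.63, adjusted p = 0.00147) and from 1081 ± 26.2 to 1719 ± 64.3 in ethanol-fed mice (0.67, 0.000288). Sort1, a sorting receptor that binds apolipoprotein B, rose in pair-fed mice from 138 ± 67.4 to 285 ± 15.9 (1.18, adjusted p = 0.00808). Sec24d, of the COPII coat, rose in ethanol-fed mice from 818 ± 64.7 to 1310 ± 96.4 (0.68, adjusted p = 0.00255).

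For ethanol the same list had 1 higher and 1 lower without IMC, and 5 higher and 4 lower under IMC. With the columns as deposited these were 7 higher and 0 lower, and 15 higher and 0 lower. Tm6sf2, an ER protein of VLDL lipidation, rose under ethanol from 551 ± 22.3 to 671 ± 28.1 normalized counts without IMC (0.28, adjusted p = 0.0421, lost in 8 of the 16 fits without 1 library) and from 546 ± 37.6 to 749 ± 99.9 under IMC (0.45, adjusted p = 0.00248). Sec23a, also of the COPII coat, fell from 1284 ± 60.3 to 1107 ± 27.4 without IMC (-0.21, adjusted p = 0.0317). This call was kept in 10 of the 16 fits without 1 library and in 9 of 14 other alternatives, and the change was -0.023 with an adjusted p of 0.815 as deposited. Sec24d was higher under ethanol with IMC (0.65, adjusted p = 0.00467). Of 6 genes of Apob mRNA editing, 1 was lower with IMC in ethanol-fed mice and 1 was lower with ethanol under IMC, the same gene, the RNA-binding protein Celf2 (164 ± 15.1 in Pair IMC, 159 ± 30.4 in EtOH Vehicle and 105 ± 10.05 in EtOH IMC, adjusted p = 0.00507 and 0.00384). None of the 6 was called in the other contrasts of 2 groups.

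Of a list of other apolipoproteins, which also holds the enzyme Pon1, 15 genes were tested. IMC lowered 3 in pair-fed mice (Apol7a, Apol9a and Apol9b), beside 9.48% of all genes called. It lowered 5 in ethanol-fed mice, Pon1 among them, beside 21.5%, and raised 0 in either diet. Apoc1, Apoc4, Apof, Apoh and Clu were called in neither diet. The list medians were -0.31 and -0.45 on the log2 scale, beside -0.00096 and -0.0013 over all genes tested. The members listed above had medians of 0.055 and -0.056. Apol9b and Apol9a, near-identical copies between which reads may be split uncertainly, fell in pair-fed mice from 966 ± 94.9 to 296 ± 119 and from 544 ± 41.5 to 182 ± 75.4 normalized counts (SD, n = 4; log2 -1.79 and -1.67, adjusted p = 0.000123 and 0.000414). In ethanol-fed mice Apol7a fell from 1976 ± 143 to 1201 ± 104 (-0.72, adjusted p = 0.000706), and Saa1, an acute-phase protein of HDL, from 417 ± 200 to 28.2 ± 7.88 (-3.74, adjusted p = 0.00201). Saa1 also has a near-identical neighbour. For ethanol the list had 0 calls without IMC, and 2 higher and 2 lower under IMC, among them Apol9b (1.13, adjusted p = 0.00158) and Saa1 (-3.74, adjusted p = 0.00274).

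**Figure D5:**
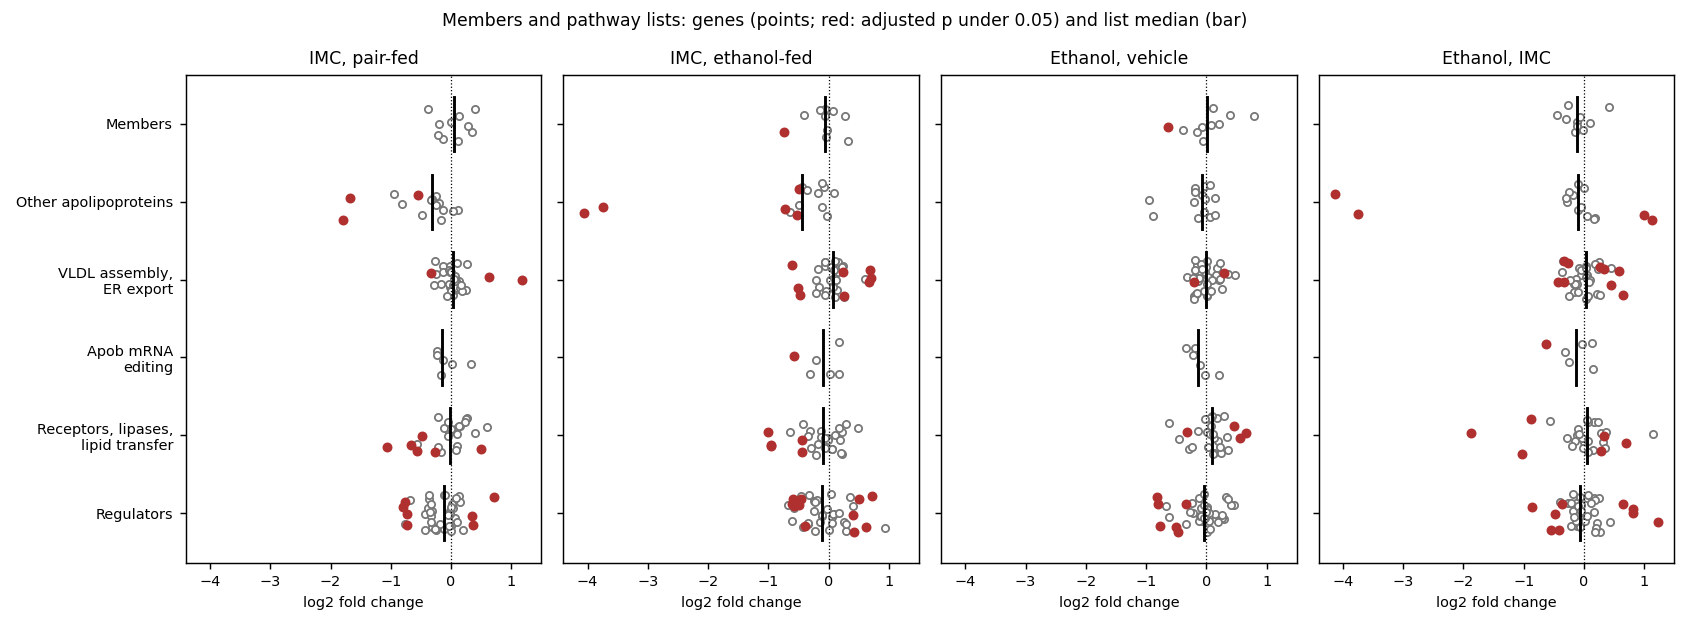
Log2 fold change (horizontal axis) of each tested gene of the members and 5 pathway lists (points, red where the adjusted p is under 0.05) with the list median (black bar), in the 4 contrasts of 2 groups. The median of the members lies between -0.11 and 0.055, while the median of the list of other apolipoproteins, which includes Pon1, lies at -0.31 and -0.45 in the IMC panels.

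Among 28 receptors, lipases and lipid transfer proteins, IMC raised 1 and lowered 5 in pair-fed mice and raised 0 and lowered 5 in ethanol-fed mice (medians -0.017 and -0.091). Sdc1, a heparan sulfate proteoglycan that takes up remnants, fell with IMC in pair-fed mice from 3144 ± 307 to 2242 ± 253 normalized counts (-0.49, adjusted p = 0.00842) and rose with ethanol to 4924 ± 234 without IMC (0.65, adjusted p = 0.00126) and to 3641 ± 505 under IMC (0.70, adjusted p = 0.000404). Lipc, the hepatic lipase, fell with IMC in ethanol-fed mice from 2824 ± 324 to 1462 ± 210 (-0.95, adjusted p = 0.000131), and Pltp, the phospholipid transfer protein, from 213 ± 16.2 to 105 ± 14.2 (-1.02, adjusted p = 0.00422). With IMC, Lipc was also called lower in pair-fed mice (-0.57, adjusted p = 0.0142 in limma). Sdc1 was also called lower in ethanol-fed mice (-0.44, adjusted p = 0.00628). For ethanol the list had 3 higher and 1 lower without IMC and 3 higher and 3 lower under IMC, against 11 higher and 0 lower, and 8 higher and 2 lower, as deposited. Pcsk6, a proprotein convertase, rose without IMC from 1355 ± 84.9 to 1999 ± 140 (0.56, adjusted p = 0.00103), and Pltp fell under IMC from 402 ± 131 (-1.88, adjusted p = 5.57e-05).

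Among 41 regulators of apolipoprotein genes, IMC raised 3 and lowered 4 in pair-fed mice and raised 5 and lowered 6 in ethanol-fed mice (medians -0.12 and -0.11). Srebf1 and Srebf2, which drive fatty acid and cholesterol synthesis, fell with IMC in pair-fed mice from 2665 ± 47.9 to 1549 ± 217 and from 1035 ± 147 to 618 ± 55.5 normalized counts (-0.79 and -0.74, adjusted p = 0.000819 and 0.00145). In ethanol-fed mice Srebf2 fell from 1058 ± 44.9 to 706 ± 128 (-0.60, adjusted p = 0.00216) and Foxa3, a liver transcription factor, rose from 337 ± 38.1 to 551 ± 29.9 (0.71, adjusted p = 0.000273). Foxa3 was also called higher with IMC in pair-fed mice (0.36, adjusted p = 0.0424 in limma). For ethanol the list had 0 higher and 6 lower without IMC and 4 higher and 5 lower under IMC, against 6 higher and 2 lower, and 8 higher and 1 lower, as deposited. Without IMC Usf2, which binds E-boxes of the CACGTG kind, fell from 635 ± 51.1 to 366 ± 51.3 (-0.80, adjusted p = 0.000336) and Foxa3 from 578 ± 88.5 to 337 ± 38.1 (-0.77, adjusted p = 0.000527), and both were also lower as deposited. Under IMC Srebf1 was higher with ethanol (0.82, adjusted p = 0.000302) and Foxa3 lower (-0.42, adjusted p = 0.0144). That Foxa3 call was lost with the columns as deposited (-0.23, adjusted p = 0.121) and without library 6 of Pair IMC (-0.36, adjusted p = 0.0530).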

How the data were processed

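The deposited signal values hold, for each gene, the reads counted by the authors over 1 size factor per library. The values were whole multiples of the value of 1 read (0.906 to 1.18) within 0.01 of a read, so whole reads were recovered. In library 15 this value is close to 1. Per the methods, reads were trimmed with Trim Galore, checked with FastQC, aligned to mm10 with STAR and normalized by upper quantile in edgeR. The counter, and whether it used strand, are not given in the sources used here. Labels describe paired-end and methods single-end reads of 100 bp. The table held 27212 rows, and each of the 24082 gene IDs was used once.

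All 16 columns were rescaled by a median ratio over the 16 libraries. The 12535 genes that reached a deposited value of 10 in 4 or more libraries were tested with limma 3.58.1 in R 4.3.3 on log2(value + 1), with a mean per group over all 16 libraries, a mean-variance trend, 7 two-sided contrasts and Benjamini-Hochberg adjustment over all genes tested (threshold 0.05). A fold on this scale understates changes of low genes. Scripts were tested on simulated data. Alternatives were other scalings, pseudocounts (0.1 and 5), filters and fits, tests of the whole reads with edgeR 4.0.16 and with DESeq2 1.42.0, and omission of each library. Fits without library 15 and without libraries 5 and 11 were chosen after seeing the data.

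Named genes are the members, up to 2 genes with the smallest p per pathway list and contrast of 2 groups among those called, and the 3 nearest genes of 3 members. Some markers and list genes are named beyond these to describe a list. A single gene that this rule covers is not reported here. Members and lists were chosen with earlier results of these data known. The study states that mice were randomized to pair or ethanol feeding, and it gives diet intake by cage, with several mice in a cage. The labels give no cage for any mouse, so cage could not be taken into account. The p-values set each difference against the spread between these libraries within groups, which limma moderates over genes. The study's other measurements and its human samples were not used here. Plots were made with Python 3.11.15 and matplotlib 3.10.9.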

Additional observations from a re-analysis of the deposited data

Results flagged for a closer look

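A library that lay far from the other 3 of its group was sought with Dixon's ratio, the gap to the nearest library over the range of the group, in 116 groups of 4 (29 genes). Above the 95% critical ratio there were 6, where chance gives about 1 in 20 groups. Apoa4 was flagged in EtOH IMC, where library 11 held 28413 normalized counts against 3964 to 6257 in the others (ratio 0.906), and in EtOH Vehicle, where library 5 held 17403 against 5184 to 7093 (ratio 0.844). Apob was flagged in the same library 5, at 135035 against 104222 to 109430 (ratio 0.831). Apoa1 was flagged in library 16 of Pair Vehicle, at 62379 against 43559 to 46392 (ratio 0.849). Of the list genes, Saa1 was flagged in library 12 of Pair Vehicle, at 6851 against 242 to 594 (ratio 0.947), and Srebf2 in library 1 of EtOH Vehicle, where it was lowest, at 991 against 1079 to 1083 (ratio 0.956). Without library 5 the log2 difference of Apob for ethanol without IMC was 0.30 (adjusted p = 0.311 in limma).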

How the results depend on the processing

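Under 30 alternatives, 1988 of 2063 recomputed member effects kept their side of the threshold and, where called, their direction. Of the rest, 36 lost and 38 gained a call and 1 reversed: Mttp for ethanol averaged over vehicle and IMC was 0.19 on the log2 scale with the columns as deposited and -0.0018 as reported. In addition 82 effects called in neither fit changed sign, the largest of them 0.41 as reported. The share of all genes called also moved between fits. In limma, edgeR with TMM and DESeq2 it was 9.48%, 9.21% and 11.8% for IMC in pair-fed mice. For ethanol under IMC it was 16.5%, 16.3% and 18.3%. Shares under the other settings are not given here, so the counts below are not a result about the members alone. The number of members called moved as follows. For IMC in pair-fed mice (0) it was 1 with quantile normalization, with a mean of at least 100 and in edgeR without library 15, and 2 in DESeq2 with or without library 15. For IMC in ethanol-fed mice (1) it was 3 with quantile normalization, 0 with a mean of at least 100, where Apoc2 was not tested, and 2 in DESeq2 with or without library 15 and in edgeR without it. For IMC averaged over both diets (2) it was 1 with no filter, a mean of at least 100, no trend, edgeR with TMM or upper quartile, and no libraries 5 and 11, 3 with quantile normalization and in DESeq2, and 4 in DESeq2 without library 15. For ethanol without IMC (1) it was 2 with the columns as deposited (Apob and Mttp), in edgeR with upper quartile, in DESeq2 with or without library 15 and in edgeR without it, and 0 with no libraries 5 and 11. For ethanol under IMC (0) it was 1 in DESeq2, and for ethanol averaged (2) it was 0 with no filter and 3 in edgeR and in DESeq2 without library 15. With the columns as deposited that last count was also 2, but of Apob and Mttp in place of Apoa1 and Apoa5. For the difference between the diets it was 0 throughout. With 1 library left out, the counts ranged from 0 to 1 for IMC in pair-fed mice, 1 to 2 in ethanol-fed mice, 1 to 3 averaged, 0 to 1 for ethanol without IMC, 0 to 1 under IMC and 1 to 2 averaged. The 2 calls of Apoc2 were the only ones kept in all fits in which it was tested. Beyond the scalings and the left-out libraries themselves, the cause was not tested. Of the named list genes, 24 of 956 recomputed effects lost their call and none reversed, and DESeq2 gave no adjusted p for Saa1. A fit with only the libraries of a comparison gives no value for the 3 contrasts of 4 groups. No paired analysis was possible because the library numbers differ between all groups. Depth limits Apoc2 (as few as 25 reads in a library), and 4 mice a group limit the others.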
